A study of Mus musculus with 14 samples.

Results

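The plasma cell genes described here are 7 genes, Jchain, Mzb1, Xbp1, Sdc1, Prdm1, Tnfrsf17 and Derl3, chosen by symbol. All 7 were found in both feature tables, of 32589 features in the 6 sections of purchased mice and of 19465 in the 8 sections of a C1qa cross. Levels are given as CPM, the unique molecular identifiers (UMIs) of a gene scaled to 1000000 UMIs of all genes, summed over those spots of a section that lay in tissue and held 1000 or more detected genes.

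Plasma cells are the antibody-secreting end stage of B cells. They arise in lymphoid organs such as the spleen, settle in the splenic red pulp, and live longest in the bone marrow, where stromal CXCL12 and the cytokines APRIL and BAFF hold and feed them. Prdm1 (Blimp-1) shuts off the B cell program, and Xbp1, the transcription factor of the unfolded protein response, enlarges the endoplasmic reticulum (ER). Mzb1 and Derl3 act in that compartment, Mzb1 in antibody assembly and Derl3 in the removal of misfolded proteins. Jchain encodes the joining chain of polymeric IgM and IgA. Sdc1 (CD138) and Tnfrsf17 (BCMA, a receptor for APRIL and BAFF) lie on the cell surface. Several of these genes have other sources, since Xbp1 serves many secretory cells, Sdc1 is made by epithelia and Mzb1 by marginal zone B cells.

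Visium spatial transcriptomics was performed with probes on formalin-fixed, paraffin-embedded mouse tissue, in 14 sections with 1 library each. The purchased C57BL/6 wild-type mice gave 1 section each of E13.5 and E14.5 fetal liver, P8 and 89-week leg bone marrow, marrow of a 6-month mouse decalcified for 5 days in EDTA (0.5M), and an adult spleen. C1qa heterozygous mice, crossed with each other, gave wild-type (WT) and C1qa knockout (KO) E14.5 fetal livers 2 and 4 and 3-month WT and KO spleens 1 and 2. The knockout is present in the whole animal. Both numbers of the fetal livers are litters, whereas for the spleens nothing ties equal numbers together or states that each section is a separate animal, so that p-values there measure the spread between these sections. Passing spots held 4225805 to 56182915 UMIs per section apart from the EDTA marrow, in which 15 of 814 in-tissue spots passed with 37167 UMIs. C1qa was read at 25.8 to 269 CPM in the 4 WT sections and with 1 or 2 counts in each of the 4 KO sections. A spot covers several cells, so that fewer plasma cells and less RNA per cell cannot be told apart in any value below. A list of 9 B cell genes summed to 5300.1 to 7539 CPM in the 5 spleens, 714 and 200.2 CPM in 89-week and P8 marrow and 7.98 to 45.5 CPM in the fetal livers.

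For 6 of the 7 genes the RefSeq promoter was available on GRCm38.p6, the build also named for the deposited files (mm10). The 250 bases before the start are shown for the 3 genes whose levels differed between the spleen genotypes below, Jchain (chr5:88527898-88528147, minus strand), Xbp1 (chr11:5520391-5520640, plus strand) and Derl3 (chr10:75893148-75893397, plus strand), each written 5′ to 3′ on the strand of its gene. Capitals mark a match to the ER stress element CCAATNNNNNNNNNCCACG, the motif read by ATF6 and XBP1 at ER chaperone genes, searched on both strands.
Jchain: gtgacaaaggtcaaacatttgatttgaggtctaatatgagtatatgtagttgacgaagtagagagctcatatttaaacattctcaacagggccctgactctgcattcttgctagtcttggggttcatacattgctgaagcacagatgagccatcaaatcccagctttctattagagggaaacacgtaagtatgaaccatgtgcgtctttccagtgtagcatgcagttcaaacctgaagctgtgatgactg
Xbp1: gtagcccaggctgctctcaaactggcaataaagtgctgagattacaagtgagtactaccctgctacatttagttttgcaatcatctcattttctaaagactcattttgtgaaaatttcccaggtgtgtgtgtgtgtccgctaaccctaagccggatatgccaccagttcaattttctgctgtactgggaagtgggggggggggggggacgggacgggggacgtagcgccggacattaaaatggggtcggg
Derl3: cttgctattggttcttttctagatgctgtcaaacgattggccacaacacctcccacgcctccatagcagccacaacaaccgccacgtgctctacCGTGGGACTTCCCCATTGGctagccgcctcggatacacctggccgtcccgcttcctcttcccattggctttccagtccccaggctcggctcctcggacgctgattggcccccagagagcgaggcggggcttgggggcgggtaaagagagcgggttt
Derl3 alone of the 6 promoters held this motif, on the opposite strand from -156 to -138 of the start, and 37 of 32851 mouse promoters (0.113%) held it in the same window. The shorter motif CCACG, which is part of the element, was found in Sdc1, Prdm1 and Derl3 and in 28.3% of all promoters. TGACGTGG, another XBP1 motif, was in none of the 6 and in 0.563% of all. A match is a string of letters and not a measured site.

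Across the tissues the 7 genes fell into different orders, and they did not behave as 1 block. Jchain was read at 0.228 CPM in P8 marrow, 562 CPM in 89-week marrow and 2550.2 CPM in the adult spleen. In the cross spleens it was 434 and 850 CPM in WT 1 and 2 and 1263 and 1187 CPM in KO 1 and 2. In the fetal livers it was 0.235 CPM at E13.5, 0.214 CPM at E14.5, 0.594 and 1.44 CPM in WT 2 and 4, and 0.346 and 3.69 CPM in KO 2 and 4. Every spleen and the 89-week marrow thus stood more than 100 CPM above every fetal liver and the P8 marrow, with no overlap.

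Derl3 and Tnfrsf17 followed the same split between sites. Derl3 was 27.6 to 49.0 CPM in the 5 spleens, 24.9 CPM in 89-week marrow, 0.637 CPM in P8 marrow and 0.214 to 4.76 CPM in the 6 fetal livers. Tnfrsf17, the lowest of the 7 genes in every spleen, was 10.5 to 15.3 CPM in the spleens, 4.86 CPM in 89-week marrow and 0.273 CPM in P8 marrow. Its fetal liver values ran from 0.0783 CPM at E13.5 to 8.44 CPM in KO 4, so that the highest fetal liver lay above the 89-week marrow in CPM. The median detected gene was also higher in KO 4, at 12.3 CPM against 6.28 CPM in that marrow. Among detected genes Tnfrsf17 stood at percentile 43.9 in KO 4 and 47.4 in 89-week marrow, so its rank was not higher there. Igha too was read at 4.10 CPM in KO 4. Mzb1 was 346 to 516 CPM in the spleens, 210 CPM in 89-week marrow, 28.8 CPM in P8 marrow and 1.17 to 12.9 CPM in the fetal livers. Of these 4 genes only Mzb1 was therefore well above the fetal liver range in P8 marrow.

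Prdm1, Xbp1 and Sdc1 were spread more evenly. Prdm1 was 23.8 to 29.6 CPM in the spleens, 17.1 CPM in P8 marrow, 9.25 CPM in 89-week marrow and 0.748 to 8.09 CPM in the fetal livers. Xbp1 was 96.6 to 171 CPM in the spleens, 110 and 70.7 CPM in 89-week and P8 marrow and 50.7 to 79.9 CPM in the fetal livers. Sdc1 ran the other way. It was lowest in the 5 spleens at 32.2 to 40.2 CPM, 45.3 to 151 CPM in the fetal livers, 87.0 CPM in 89-week marrow and highest among the marrows in P8 at 145.5 CPM. The 151 CPM came from WT fetal liver 4, which differed in content from the purchased livers. Its hepatocyte genes summed to 7533 CPM, against 21981 CPM at E13.5 and 34543 CPM at E14.5. Its osteoblast genes summed to 2816 CPM, against 396 and 200 CPM. Purchased and cross sections differ in mice and probe tables, so no test was made between them.

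**Figure D1:**
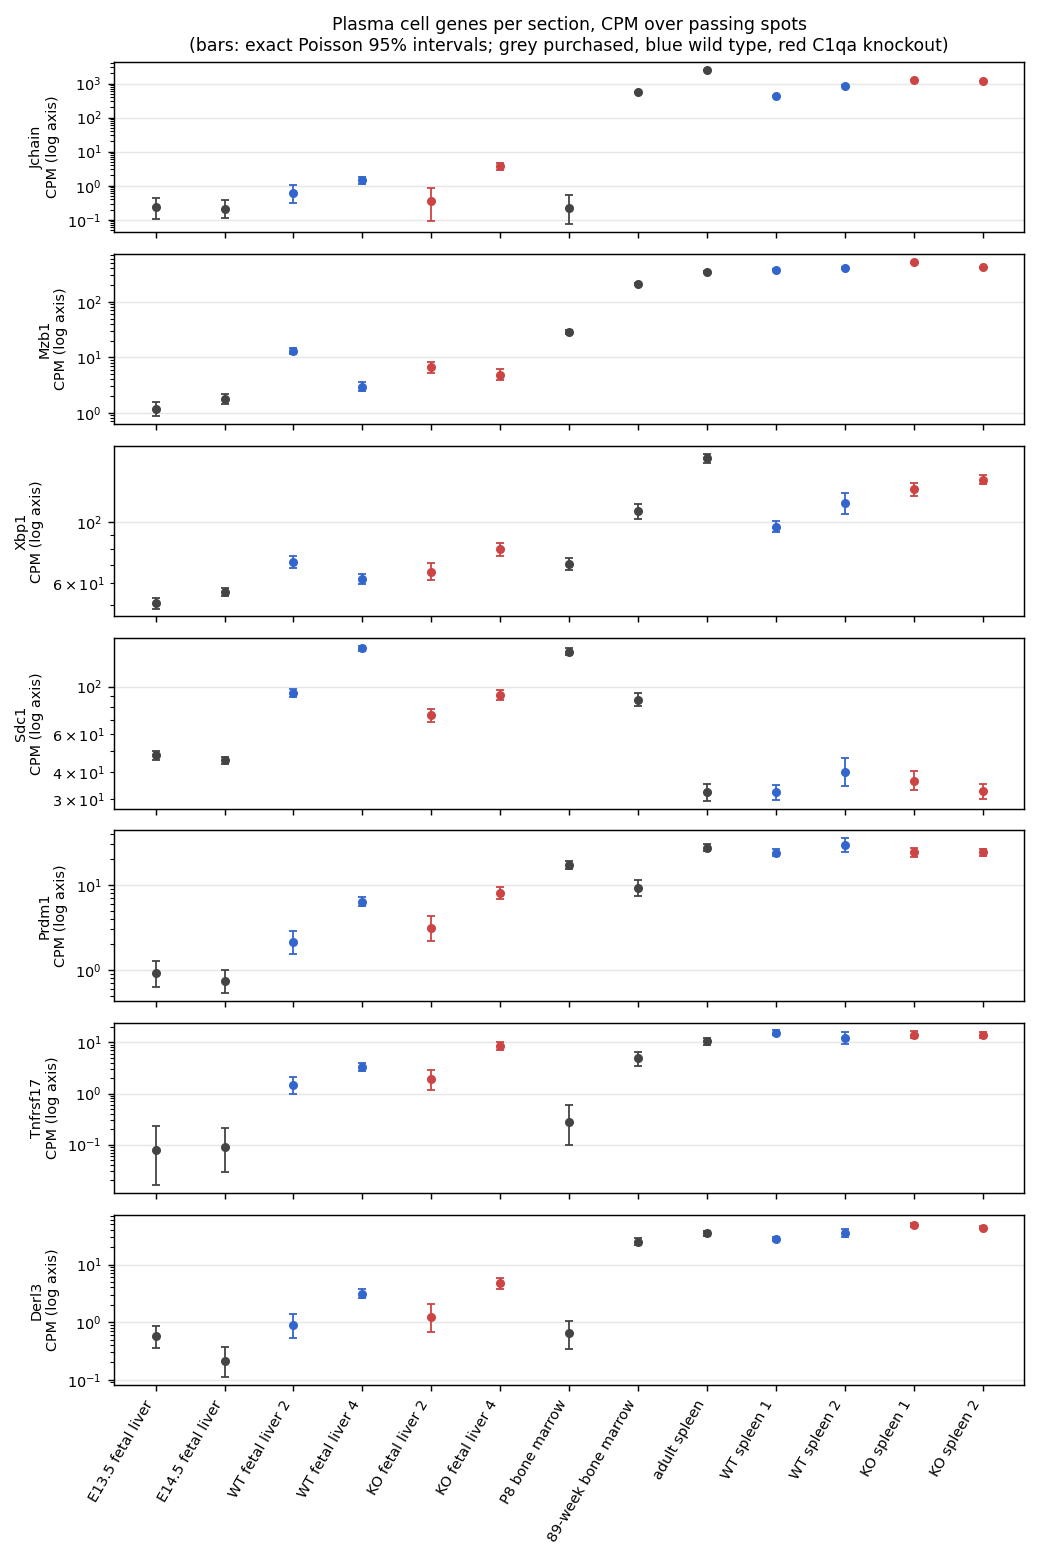
CPM of each of the 7 genes on a log axis in 13 sections, with exact Poisson 95% intervals that cover counting error only; EDTA marrow is left out. Jchain, Derl3 and Tnfrsf17 are high in spleens and 89-week marrow and low in P8 marrow, whereas Sdc1 is lowest in the spleens.

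EDTA marrow carried 2 counts of Jchain, 4 of Xbp1 and 0 of the other 5 genes. A count of 0 there allows up to 80.7 CPM by a floor of 3 counts (exact Poisson 95% limit 99.3 CPM), above the level of Sdc1, Prdm1, Tnfrsf17 or Derl3 in every spleen. Igkc was read with 134 counts and Ighm with 17. No comparison was made with this section.

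The 2 marrow ages were set side by side to ask which of the 7 genes are higher in the old marrow. With 1 section an age there is no replicate check, and a gene was counted as higher past 2-fold among 14955 genes with at least 10 counts over both sections. Jchain, Mzb1, Tnfrsf17 and Derl3, 4 of the 7 genes, were higher at 89 weeks, where 16.1% of all genes passed that rule, and none was higher at P8, where 30.1% did.

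Jchain rested on 5 counts at P8 (0.228 CPM, exact Poisson 95% interval 0.0739 to 0.531) against 4743 counts at 89 weeks (562 CPM, 546 to 579), a ratio of 2472 with a counting interval of 1058 to 7616. Derl3 had 14 and 210 counts and a ratio of 39.1 (22.8 to 72.7). Tnfrsf17 had 6 and 41 counts and a ratio of 17.8 (7.52 to 51.3). Mzb1 had 632 and 1769 counts and a ratio of 7.29 (6.66 to 8.00). The widest intervals belong to the genes with the fewest counts at P8.

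The other 3 genes stayed inside 2-fold. Xbp1 had a ratio of 1.56 (1.43 to 1.69) of 89 weeks over P8. Sdc1 and Prdm1 were lower in the old marrow, with ratios of 0.598 (0.551 to 0.648) and 0.542 (0.419 to 0.693), and their intervals lie below 1.

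Immunoglobulin genes set the same 2 marrows apart. Ighm was 166 CPM at P8 and 8158 CPM at 89 weeks, Igkc 51.6 and 52702 CPM, and Igha 0.410 and 570 CPM. Ighg2b was the largest heavy chain of the old marrow at 16454 CPM and rested on 21 counts at P8 (0.956 CPM). Ighg2b over Ighm was 2.02 in 89-week marrow, 0.0978 in the adult spleen and 0.0148 to 0.0689 in the cross spleens. Probes for close IgG constant regions can share targets, so that the split among the IgG genes is uncertain.

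The marrows also differed in what else they held. Osteoblast genes summed to 116099 CPM at P8 and 573 CPM at 89 weeks, and neutrophil genes to 6227 and 29258 CPM. The P8 bones were sectioned whole whereas the old marrow was cryosectioned and separated from the bone, so that age and preparation cannot be told apart. Within P8, the 321 spots with at least 0.5% neutrophil UMIs held Mzb1 at 48.4 CPM and the other 764 spots at 13.7 CPM, and Sdc1 at 88.3 and 189 CPM. Taking only such neutrophil-bearing spots in both sections, the Sdc1 ratio became 0.986 (0.892 to 1.09) and Xbp1 reached 2.01 (1.80 to 2.24), which puts 5 of the 7 genes past 2-fold, where 14.6% of 14051 genes were higher at 89 weeks and 24.8% higher at P8. One of the 5, Tnfrsf17, had 0 counts at P8 in these spots. Jchain was then 0.419 and 562 CPM.

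**Figure D2:**
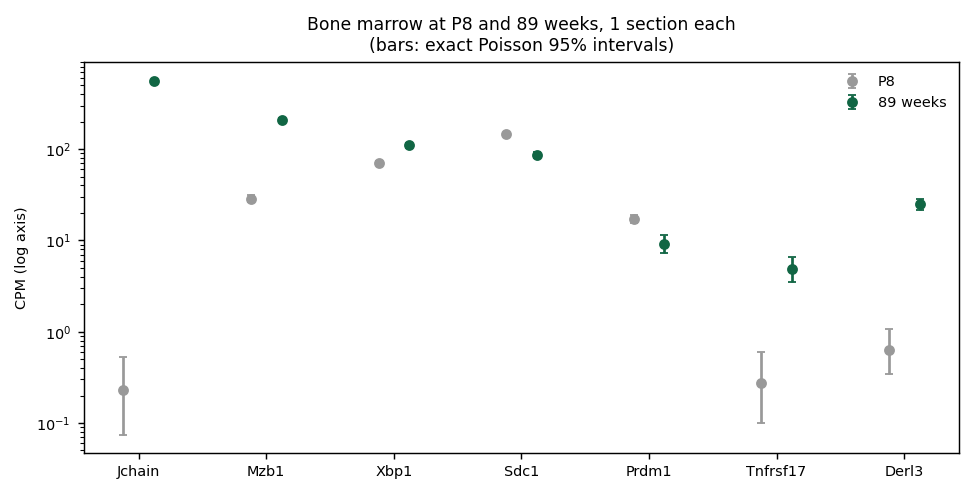
CPM of the 7 genes in the P8 and 89-week marrow sections on a log axis, with exact Poisson 95% intervals. Jchain, Derl3, Tnfrsf17 and Mzb1 are higher at 89 weeks, whereas Sdc1 and Prdm1 are lower.

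In the C1qa cross, 3 of the 7 genes were higher in the KO spleens, Jchain, Derl3 and Xbp1, and the other 4 did not pass the test. Of all 18895 genes tested 20.6% passed, 13.8% higher and 6.79% lower in KO. The members' median log2 fold change was 0.50 against -0.08 for all genes. The fold changes come from edgeR's quasi-likelihood test on the summed counts of 2 against 2 sections, with Benjamini-Hochberg adjustment over all genes tested.

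Jchain, at 434 and 850 CPM in WT and 1263 and 1187 CPM in KO, differed by a log2 fold change of 1.19 ± 0.25 (SE), 2.29-fold, with an edgeR adjusted p of 0.00305. In plain CPM the ratio of its KO mean to its WT mean was smaller, at 1.91. Both KO sections lay above both WT sections, as 18.8% of all genes did (51.5% had both KO below both WT), and the WT sections differed from each other by more than the KO sections did. Derl3 was 27.6 and 35.0 CPM in WT and 49.0 and 43.8 CPM in KO, a log2 fold change of 0.85 ± 0.18 (SE) with an edgeR adjusted p of 0.00279. Xbp1 was 96.6 and 118 CPM in WT and 132 and 143 CPM in KO, a log2 fold change of 0.63 ± 0.17 (SE) with an edgeR adjusted p of 0.0133. Neither Derl3 nor Xbp1 overlapped between genotypes.

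Mzb1 was 382 and 410 CPM in WT and 516 and 424 CPM in KO, with no overlap, yet its log2 fold change of 0.50 ± 0.19 (SE) missed the threshold at an edgeR adjusted p of 0.0602. Sdc1 was 32.2 and 40.2 CPM in WT and 36.5 and 32.6 CPM in KO, Prdm1 23.8 and 29.6 against 24.2 and 24.1 CPM, and Tnfrsf17 15.3 and 12.3 against 14.2 and 13.9 CPM. The KO values of these 3 genes lay inside the WT range. In plain CPM the ratio of the KO mean to the WT mean was 0.955 for Sdc1, 0.904 for Prdm1 and 1.02 for Tnfrsf17. The fit, which rescales the sections, gave Sdc1 and Prdm1 the opposite sign. For Sdc1, Prdm1 and Tnfrsf17 its log2 fold changes were 0.21 ± 0.18, 0.14 ± 0.19 and 0.25 ± 0.22 (SE). They carried edgeR adjusted p-values of 0.368, 0.573 and 0.388, and all 3 turned negative with upper-quartile scaling, at -0.08, -0.15 and -0.04. That scaling moved the median of all genes to -0.37 and the split of calls from 2603 higher and 1283 lower to 1197 higher and 4400 lower, whereas DESeq2 gave 2269 higher and 375 lower. Jchain and Derl3 passed under upper-quartile scaling, at 0.91 and 0.56, and Xbp1 at 0.34 did not (edgeR adjusted p of 0.0803).

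The spleen calls rest on few sections. In a joint fit of the 8 cross sections, which shares 1 estimate of spread with the fetal livers, no gene passed. Without KO spleen 2, calls over all genes fell from 3886 to 240 and none of the 7 genes passed, while their log2 fold changes stayed at 1.14 for Jchain, 0.83 for Derl3 and 0.47 for Xbp1. With DESeq2, Jchain missed the threshold (DESeq2 adjusted p of 0.0614) and Mzb1 passed (DESeq2 adjusted p of 0.018).

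**Figure D3:**
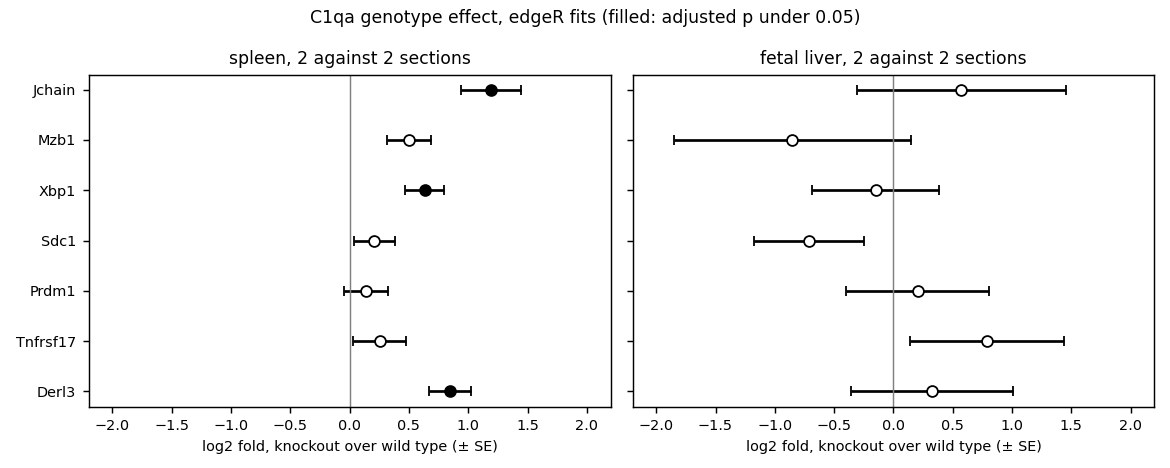
Log2 fold change of KO over WT for the 7 genes in spleen and in fetal liver, with bars of 1 SE from edgeR fits of 2 against 2 sections; filled points have an adjusted p under 0.05. Jchain, Derl3 and Xbp1 pass in spleen, and no gene passes in fetal liver.

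Antibody constant genes moved in both directions in the same spleens. Of 11 tested, 7 were higher in KO and 1, Igha, was lower, with a list median of 0.69 (5 and 1 with upper-quartile scaling). Ighg2b rose from 77.2 and 180 CPM in WT to 741 and 675 CPM in KO, a log2 fold change of 2.73 ± 0.28 (SE, edgeR adjusted p of 6.03e-06). Igkc, the main light chain, rose from 10937 and 17536 to 30635 and 26704 CPM. Igha, the heavy chain of IgA, fell from 571 and 1260 to 316 and 287 CPM, a log2 fold change of -1.34 ± 0.26 (SE, edgeR adjusted p of 0.00175, not passed with DESeq2). Jchain over Igha was thus 0.675 and 0.761 in WT and 3.99 and 4.13 in KO, whereas Jchain over Ighm was 0.0834 and 0.117 in WT and 0.117 and 0.112 in KO. The ratio to Ighm overlapped between the genotypes. The ratio to Igha did not, which follows from Jchain being higher and Igha lower in both KO sections and adds nothing to those values.

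ER folding and export genes formed the list with the most calls among plasma cell lists. Of 26 tested, 19 were higher in KO and none was lower, with a list median of 0.76 (17 higher and 1 lower with upper-quartile scaling). Dnajb9, an ER co-chaperone and XBP1 target, had a log2 fold change of 2.17 ± 0.28 (SE), Ssr4 of the translocon 1.16 ± 0.19, Hyou1, a chaperone, 1.05 ± 0.18 and Dnajb11, a BiP cofactor, 0.96 ± 0.16. Their edgeR adjusted p-values were 5.78e-05, 0.000359, 0.000649 and 0.00047.

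Of 12 regulators of the step from B cell to plasma cell, 7 were higher and 1 was lower (5 and 2 with upper-quartile scaling). Irf4, which drives plasma cell fate, had a log2 fold change of 1.01 ± 0.18 (SE) with an edgeR adjusted p of 0.000957. Pou2af1 and Bcl6, which act in germinal center B cells, had 0.91 and 0.76, and Ciita, of antigen presentation, 0.75. Members of the list that act before the plasma cell stage thus rose beside Irf4, and Id3 was the 1 that fell, by 0.50 on the log2 scale. Of 13 genes of the survival niche 5 were higher and none lower (2 higher with upper-quartile scaling), among them the chemokine receptor Cxcr4 at 0.85 ± 0.16 (SE) and Tnfrsf13b (TACI) at 0.71 ± 0.18. Of 11 other plasma cell genes 3 were higher and 1 lower (4 and 3 with upper-quartile scaling). Cd38 had a log2 fold change of 1.07 ± 0.18 (SE), Trp53inp1 0.92 ± 0.18 and Slamf7 0.73 ± 0.17, whereas Ccr10, a homing receptor of IgA plasma cells, fell by 1.01.

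Other cells moved with genotype too. Pancreas acinar genes, from tissue attached to the spleen, summed to 81.0 and 1060 CPM in WT and 4154 and 28465 CPM in KO, all 11 tested passed as higher, and none was at 0 in any cross spleen. Acinar cells are secretory and use Xbp1 and ER genes. In KO 2 the 48 spots with at least 0.5% acinar UMIs held Derl3 at 92.7 CPM against 40.9 CPM elsewhere, Jchain at 43.9 against 1255 CPM, and Xbp1 at 144 against 143 CPM. In KO 1 the 38 such spots held Derl3 at 68.6 against 48.7 CPM (13 counts in them) and Xbp1 at 169 against 131 CPM (32 counts). In WT 2 the 116 such spots held Derl3 at 14.6 against 36.1 CPM, on 3 counts, and Xbp1 at 127 against 117 CPM (26 counts). So few counts settle no direction in KO 1 or WT 2. Without such spots in any section the log2 fold changes were 1.19 for Jchain, 0.73 for Derl3, 0.59 for Xbp1 and 0.50 for Mzb1, and all 4 passed. Of the ER genes 19 of 26 passed there as well. B cell genes summed to 6197 and 5300 CPM in WT and 7539 and 6416 CPM in KO, with 2 of 9 called higher (5 without acinar spots, 6 with DESeq2 and 1 with upper-quartile scaling), and plasmacytoid dendritic cell genes, of which 3 of 7 were higher, to 356 and 485 against 473 and 643 CPM. Neutrophil genes fell, with 11 of 11 called, from 701 and 633 to 87.1 and 142 CPM. Of T cell genes 3 of 9 were higher, of epithelial genes 1 of 6 was higher, of hepatocyte genes 1 of 9 was lower and of osteoblast genes none of 7 passed. Red pulp genes summed to 3911 and 2424 CPM in WT and 2141 and 2229 CPM in KO. White pulp genes summed to 3567 and 4079 CPM in WT and 4635 and 4676 CPM in KO, so the sections also differ in pulp make-up. The part of B cell, plasmacytoid dendritic cell and neutrophil content in the results was not tested.

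Within the spleen, spots were ranked by the log2 ratio of white pulp to red pulp marker counts, lists that hold none of the 7 genes, and the outermost of 3 equal groups were compared. Red pulp is the blood-filled cord and sinus tissue, and white pulp the lymphoid sheaths and follicles. In the 4 cross spleens 6 of the 7 genes were higher in the red-pulp-rich spots and Mzb1 did not pass. Over 18519 genes tested 10.6% were higher in red-pulp-rich and 9.54% in white-pulp-rich spots, 20.2% in all. The median log2 of white over red was -0.69 for the 7 genes.

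Jchain had the widest gap. It was 634 CPM in red-pulp-rich against 216 CPM in white-pulp-rich spots of WT 1, 1341 against 334 CPM in WT 2, 2238 against 486 CPM in KO 1 and 2144 against 496 CPM in KO 2. Red-pulp-rich spots were 2.93, 4.01, 4.60 and 4.32 times higher, and no white-pulp-rich value reached the lowest red-pulp-rich one. The share of all genes separated in this way between the zones was not computed. The log2 of white over red was -2.16 ± 0.13 (SE, edgeR with section as block, adjusted p of 6.14e-06). In the purchased adult spleen, which was not in the fit, the values were 4071 and 1304 CPM, a ratio of 3.12.

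The surface proteins came next. Sdc1 was 30.5, 54.5, 50.1 and 48.0 CPM in the red-pulp-rich and 28.9, 24.4, 25.0 and 21.1 CPM in the white-pulp-rich spots of WT 1, WT 2, KO 1 and KO 2, a log2 of -1.02 ± 0.17 (SE, edgeR adjusted p of 0.00211). Tnfrsf17 was 1.41 to 1.94 times higher in the red-pulp-rich spots, a log2 of -0.89 ± 0.16 (SE, edgeR adjusted p of 0.00307). Xbp1 had a log2 of -0.69 ± 0.13 (SE, edgeR adjusted p of 0.0044), Derl3 -0.64 ± 0.18 (0.0330) and Prdm1 -0.43 ± 0.12 (0.0280). In WT 1 the red over white ratio in CPM was 1.05 for Sdc1 and Prdm1, 0.941 for Xbp1 and 0.791 for Derl3, so that these 4 genes rest on the other spleens. Prdm1 was also at 1.05 in KO 2. Derl3 and Prdm1 lost their calls without KO spleen 1, KO spleen 2 or WT spleen 2 and with DESeq2, which leaves 4 genes. Among the settings that keep all sections, Prdm1 lost its call in 2, DESeq2 being 1 of them, and Derl3 in 1.

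Mzb1 was the exception. It was 223, 379, 431 and 374 CPM in red-pulp-rich and 500, 366, 474 and 393 CPM in white-pulp-rich spots, a log2 of 0.14 ± 0.16 (SE, edgeR adjusted p of 0.629). Over the 5 spleens, each of the other 6 genes had a lower white over red log2 in CPM than Mzb1 in all 5 sections. Mzb1 had the highest fitted log2 among the members, so lower values in the other 6 largely follow from taking it as the reference. The share of all genes that lay below Mzb1 in all 5 sections was not computed. The mean difference between Jchain and Mzb1 was -2.25 ± 0.30 (SD, n = 5), with a two-sided exact permutation p of 0.0625, the smallest that 5 sections allow (0.0625 after adjustment over 6 pairs). All 6 pairs, each with Mzb1 as the reference, gave that same p. It follows once the 5 signs agree, so it adds nothing to them and does not separate the pairs.

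**Figure D4:**
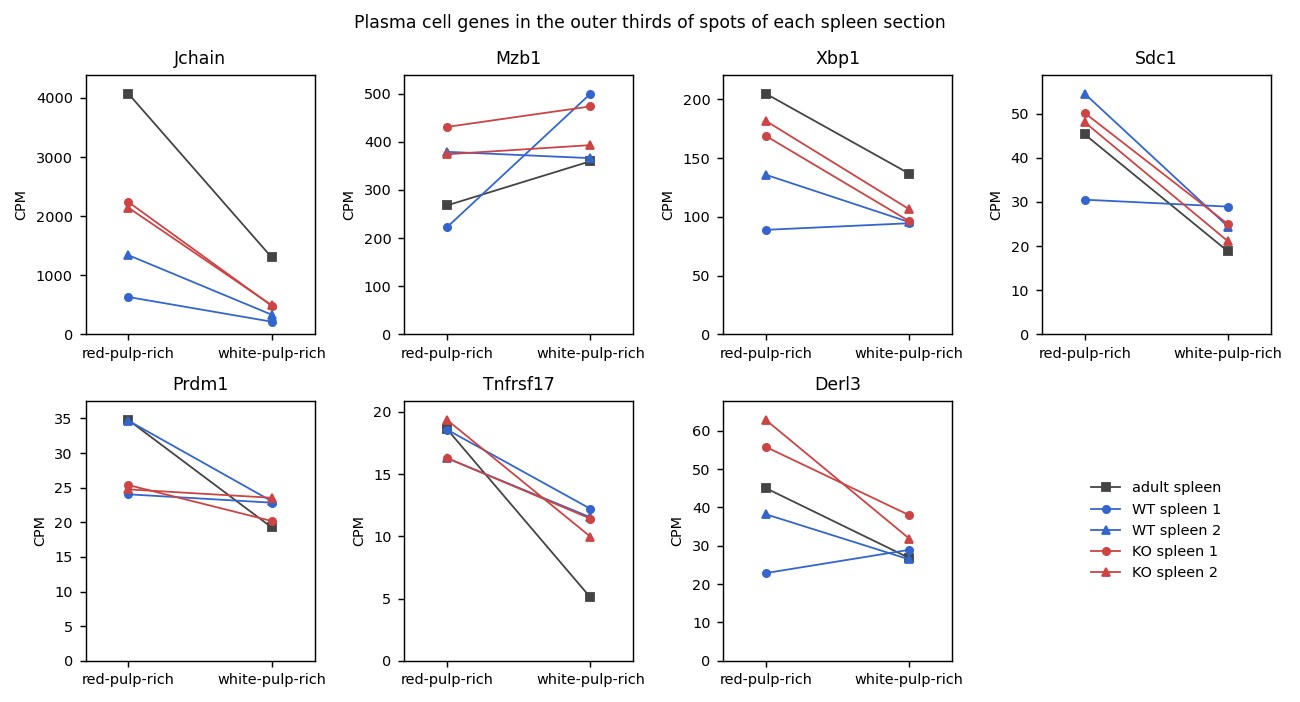
CPM of the 7 genes in the red-pulp-rich and white-pulp-rich groups of spots in 5 spleens, 1 line a section. Jchain falls toward white pulp in all 5 sections, and Mzb1 does not follow.

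Of 11 antibody constant genes, 6 were higher in red-pulp-rich spots and none in white-pulp-rich spots. Igha had a log2 of white over red of -1.85 ± 0.12 (SE, edgeR adjusted p of 1.04e-05), Ighg3 -1.44, Ighm -1.05 and Ighg2b -0.99. WT 1 stood apart here as well, with Ighm 0.961 and Igkc 0.927 times as high in red-pulp-rich as in white-pulp-rich spots. Of 26 ER genes 7 were higher in red-pulp-rich and none in white-pulp-rich spots, with a list median of -0.07, and Sdf2l1, with the smallest p, was at -0.66 ± 0.09 (SE). Of 12 regulators 1 was higher in red-pulp-rich spots, Ell2, an elongation factor that favors the secreted antibody form, at -0.60, and 3 in white-pulp-rich spots, Bach2 (0.46), Spib (0.51) and Pou2af1 (0.48), which act in B cells. Of 12 niche genes tested 3 lay on each side. The chemokine Cxcl12 was at -1.999 ± 0.10 (SE, edgeR adjusted p of 3.03e-06) and Tnfsf13 (APRIL) at -0.74 ± 0.17 toward the red pulp, while Tnfsf13b (BAFF) was at 0.72 ± 0.19 toward the white pulp. Vcam1 is in the red pulp list itself. Of 11 other plasma cell genes 3 lay on each side, with Tent5c at -2.71 and Cd27, also made by T cells, at 1.64. Erythroid cells express Tent5c as well. Neutrophil genes (10 of 11) and pancreas acinar genes (5 of 11) were also higher in red-pulp-rich spots, and without acinar spots 6 of the 7 genes passed.

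In the spleens Jchain was patchy at the level of spots. The 5% of spots with the most Jchain held 38.2% of its UMIs in the adult spleen, 26.6% and 35.6% in WT 1 and 2, 39.6% and 42.6% in KO 1 and 2, and 19.1% in 89-week marrow, whereas the richest 5% by total UMIs held 8.66 to 18.5% of all UMIs in these sections. Single spots reached 1048 Jchain UMIs in the adult spleen, 96 and 45 in WT and 239 and 308 in KO. The median spot held 16.5 UMIs in the adult spleen, 3 and 1 in WT, 3 and 5 in KO and 4 in 89-week marrow. Mzb1 was more even, with 15.6 to 27.2% of its UMIs in the top 5% of spots of the 5 spleens. Across spots, Jchain correlated with the mean of its neighboring spots at r = 0.486 in the adult spleen, 0.544 and 0.505 in WT, 0.667 and 0.659 in KO and 0.248 in 89-week marrow. Mzb1 and Xbp1 were at 0.259 and 0.247 in that marrow and below Jchain in every spleen. Spots of 1 section share a library and depth, and these values are a description. Outside the tissue, spots of the 89-week marrow held Jchain at 577 CPM against 562 CPM in tissue. In the adult spleen the values were 2398 against 2549 CPM. How well position is kept in these 2 sections was not tested, so the more even marrow pattern carries that limit.

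**Figure D5:**
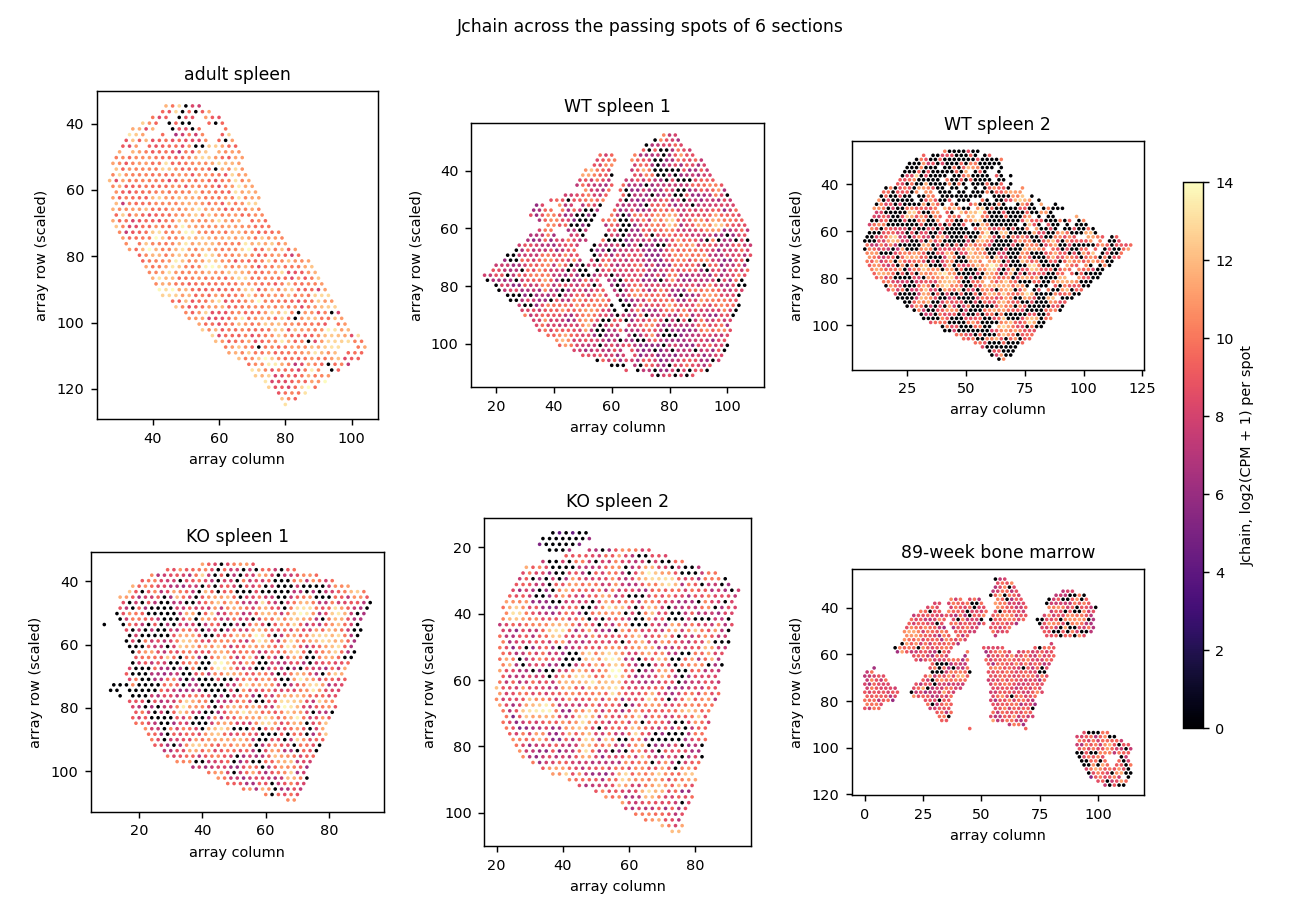
Jchain as log2(CPM + 1) in each passing spot of 5 spleens and the 89-week marrow at its array position; black spots have no Jchain UMI. High spots lie in patches in the spleens and are more even in the marrow, where spots outside the tissue also held Jchain near its tissue level.

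The share of spots with at least 1 Jchain UMI depends on depth. It was 87.7% (exact binomial 95% interval 85.9 to 89.4) and 56.3% (53.9 to 58.7) in WT 1 and 2, where the median spot had 13938 and 2294 UMIs, and 80.5% (78.2 to 82.6) and 88.6% (86.8 to 90.3) in KO 1 and 2. After thinning to 2000 UMIs a spot, which left out 4, 554, 1 and 0 spots, it was 44.8% and 53.8% in WT and 55.3% and 58.3% in KO. The KO minus WT difference of 7.45 percentage points had a two-sided exact permutation p of 0.3333, the smallest that 2 against 2 sections allow, and unthinned it was 12.5 points with a p of 0.667. Fetal livers, a tissue without mature plasma cells, at median depths of 5170.0 to 75701 UMIs a spot, had Jchain in 0.186 to 9.85% of spots and in 0 to 1.02% after thinning. The 89-week marrow had it in 88.9% and 58.7% of spots, and P8 marrow in 0.461%, with 0 of 1080 spots after thinning, which allows a share of up to 0.278% by a floor of 3 spots (exact binomial 95% limit 0.341%).

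The genes whose spot pattern was most like that of Jchain, by the median r of log2(CPM + 1) over 5 spleens, were antibody genes. The first 10 were Igkc (median r of 0.598), Ighm (0.574), Igha (0.355), Ighj1 (0.354), Ighj4 (0.309), Hsp90b1 (0.308), Ighg2b (0.289), Iglc1 (0.274), Ighg3 (0.273) and Slpi (0.254), out of 5120 genes detected in at least 10% of spots of each spleen. Among the members, Xbp1 ranked 69 with a median r of 0.160 and Mzb1 224 with 0.114, and the other 4 were too sparse to be ranked. In 89-week marrow Igkc (0.434), Ighm (0.382) and Ighg2b (0.270) stood first, followed by Txndc5 (0.247), an ER disulfide isomerase, and Hsp90b1 (0.220). Between pairs of the 7 genes r was low throughout, at most 0.276 for Jchain with Xbp1 in the adult spleen.

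In fetal liver no gene at all passed the genotype test, 0 of 18986 (0%), so none of the 7 did. C1qa itself did not pass, although it was 95.9 and 25.8 CPM in WT 2 and 4 and had 1 count in each KO section. The common dispersion, edgeR's measure of spread, was 0.263 here against 0.0245 in spleen. The lack of calls therefore does not show that the 7 genes are unchanged by genotype. Unadjusted, 138 genes had a p under 0.05 and no member did, and DESeq2 called 7 genes, none of them a member. Sdc1 was 93.3 and 151 CPM in WT 2 and 4 and 73.5 and 91.5 CPM in KO 2 and 4, lower in KO in both litters and below both WT sections, as 2.45% of all genes were (7.46% had both KO above both WT), with a log2 fold change of -0.71 ± 0.46 (SE, unadjusted edgeR p of 0.168). Mzb1 was 12.9 and 2.95 CPM in WT and 6.58 and 4.88 CPM in KO. Tnfrsf17 was 1.44 and 3.26 against 1.90 and 8.44 CPM, and Prdm1 2.13 and 6.34 against 3.12 and 8.09 CPM, higher in litter 4 than in litter 2 in both genotypes. The median detected gene was higher in litter 4 as well, at 11.4 and 12.3 CPM (WT and KO) against 6.26 and 6.23 CPM in litter 2. With litter as a block, 157 genes passed (5 higher and 152 lower) and still no member, the nearest being Sdc1 at -0.75 ± 0.28 (SE, unadjusted edgeR p of 0.00668, adjusted 0.341). Hepatocyte genes took 118107 and 56123 CPM in litter 2 (WT and KO) and 7533 and 11971 CPM in litter 4, so the litters also differ in what was sectioned.

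The test of whether the genotype effect differs between spleen and fetal liver also called no gene of 19180 (0%), with 2018 at an unadjusted p under 0.05 and none of them a member. DESeq2 called 9 genes, none a member. The log2 difference, spleen minus fetal liver, was 0.61 ± 0.91 (SE) for Jchain, 0.52 ± 0.61 for Derl3, 0.76 ± 0.57 for Xbp1 and 0.90 ± 0.42 for Sdc1. With litter as a block 1409 genes passed and the 7 genes still did not, Sdc1 coming nearest at an edgeR adjusted p of 0.0540. The spleen calls are therefore not shown to be particular to spleen.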

How the data were processed

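Raw UMI counts, 1 value for each gene in each spot, were what the authors deposited. Per the file headers they were made with Cell Ranger 4 (E13.5, E14.5, P8 and adult spleen) or Space Ranger 2.1.1 (89 weeks), 3.1.2 (EDTA) and 4.0.1 (cross), and mm10 is the build in the submitters' processing notes. The deposited barcode, gene and position tables hold other values, namely names and the in-tissue mark. Spots in tissue that reached 1000 detected genes, the study's minimum, were summed per section. The labels give the cross spleens as 3 months old, the study's text gives 2 months for wild-type spleens.

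Summed counts were tested with edgeR 4.0.16 (filterByExpr, TMM, quasi-likelihood F test, adjusted p under 0.05), with section as a block for the zones and DESeq2 1.42.0 as an alternative. The edgeR fits were also run on simulated counts with known fold changes and 1 fixed spread per comparison. This does not check the spread between the real sections. Marrow ages have no replicates and carry exact Poisson intervals, computed with scipy 1.17.1. Zones came from lists of white and red pulp genes. Sections of a group were no duplicates (chi-square per degree of freedom of at least 22.1). Same-numbered fetal livers are littermates by the study's text and deviated together (r = 0.652), spleens did not (r = 0.0394).

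All 7 genes were named everywhere, up to 4 genes a list by smallest p, and the first 10 genes most like Jchain. Genes, lists and tests were chosen with earlier results of these data known. Spots outside the tissue entered no comparison. Exact and counting intervals cover counting error only.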

Additional observations from a re-analysis of the deposited data

Results flagged for a closer look

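Spots outside the tissue, which entered no comparison, held Jchain in 4 purchased sections with more than the 3 counts that a count of 0 allows. In the adult spleen 3954 such spots held 16578 Jchain UMIs, or 2398 CPM against 2549 CPM in tissue. Over all genes these spots held 6912890 UMIs, against 15291792 in the passing tissue spots. In the 89-week marrow 4058 such spots held 4843 Jchain UMIs, or 577 CPM against 562 CPM in tissue. Over all genes they held 8390060 UMIs, against 8434382 in the passing tissue spots. Other genes there also lay near their tissue level, so the pattern was not particular to Jchain. Igkc was at 46197 against 52696 CPM, Xbp1 at 117 against 110 CPM and C1qa at 85.0 against 92.8 CPM. The other 2 sections held 5 UMIs each outside the tissue, at 0.480 CPM against 0.227 CPM in tissue in P8 marrow and 0.224 CPM against 0.214 CPM in E14.5 fetal liver. The cross sections were read in tissue spots alone, so the same value was not computed for them. The source of these UMIs was not tested.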

How the results depend on the processing

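Alternatives were other scalings and filters, DESeq2, other spot sets, a replicate block and leaving out each section. The zone test without pancreas acinar spots and the totals without immunoglobulin genes in both tissues were chosen after seeing the data. In spleen, 0 of the 7 genes passed in the joint fit of 8 sections and 1 in white-pulp-rich spots, against 3, and 0 to 4 passed when each section was left out. The counts were 4 to 6 for the zones, 0 to 0 in fetal liver and 0 to 0 for the difference between tissues.

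Over all genes, spleen calls went from 3886 to 2506 after thinning to the shallowest section, 1606 in white-pulp-rich spots, 240 without KO spleen 2 and 0 in the joint fit. Zone calls went from 3734 to 2183 without WT spleen 2. Fetal liver calls went from 0 to 7 with DESeq2, 1 in hepatocyte-bearing spots, and 0 to 109 with a section left out, and calls of the difference between tissues from 0 to 9 with DESeq2 and 0 to 2 with a section left out. The cause was not tested.

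Directions turned for genes that passed no test. In spleen, upper-quartile scaling gave log2 fold changes of -0.15 for Prdm1, -0.080 for Sdc1 and -0.042 for Tnfrsf17, and white-pulp-rich spots gave -0.0067 for Sdc1. In fetal liver upper-quartile scaling gave 0.065 for Xbp1. For the difference between tissues DESeq2 gave 0.069 for Prdm1, and upper-quartile scaling gave -0.057 for Derl3 and -0.021 for Jchain. With a section left out, Prdm1 in spleen ran from -0.035 to 0.27 and Mzb1 in the zones from -0.10 to 0.26. In fetal liver Derl3 ran from -0.26 to 0.90, Jchain from -1.17 to 1.21, Mzb1 from -1.74 to 1.32, Prdm1 from -0.090 to 0.63 and Xbp1 from -0.57 to 0.50. For the difference between tissues Derl3 ran from -0.12 to 1.11, Jchain from -0.026 to 2.35, Mzb1 from -0.76 to 2.19, Prdm1 from -0.52 to 0.24 and Tnfrsf17 from -0.94 to 0.19. Where a group was left with 1 section, that section was assumed to vary like the others.

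With the replicate number as a block, 4 of the 7 genes and 4968 genes in all passed in spleen, although the spleen numbers pair nothing in the labels and the sections did not deviate together. In fetal liver, paired by litter, the block gave 0 of the 7 genes and 157 in all, and for the difference between tissues 0 of the 7 and 1409 in all.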
